A study of Taeniopygia guttata with 21 samples.

Results

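Transcripts of 6 regulators of the neural crest and of melanoblasts were followed across the embryonic skin of the zebra finch (Taeniopygia guttata). They are the transcription factor genes SOX10, PAX3, MITF and TFAP2B, the receptor gene EDNRB and the ligand gene GDNF. The genes were chosen by symbol, and each had a single entry among the 18202 genes of the deposited table. All 6 passed the filter on low values, a normalised read count of at least 10 in at least 3 libraries. The series was made to find molecules restricted to the future colour domains of the skin.

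All samples were skin of wild-type embryos at stage HH28 (Hamburger-Hamilton), with no treatment and no altered allele. Skin came from 7 locations, 3 on the back (dorsal anterior, dorsal saddle and dorsal posterior) and 4 on the belly side (flank, ventral anterior, ventral-most and ventral posterior). Each location had 3 libraries, carrying the numbers 3, 8 and 11, so that there were 9 dorsal and 12 ventral libraries. The labels do not say whether a number stands for an embryo or for pooled pieces, nor which sex the embryos were, so p-values measure the spread between these samples. Libraries held 12.9 to 23.0 M reads (mega), with a median of 18.6 M.

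Melanocytes arise from the neural crest, a population that leaves the dorsal neural tube and migrates into the skin. SOX10 and PAX3 act together in crest cells and activate MITF, the regulator that commits a cell to the melanoblast fate and switches on pigment genes in the mouse. EDNRB is a G protein-coupled receptor for endothelins, needed in the mouse for melanoblasts and enteric crest cells to spread. TFAP2B belongs to the AP-2 factors, which are used by the neural crest and also by surface ectoderm. GDNF is a secreted ligand that signals through the RET receptor and the co-receptor GFRA1 in neurons, enteric crest cells and kidney. Whole pieces of skin were sequenced, so fewer cells of a type and less RNA per cell cannot be told apart in any value below.

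The label skin was checked against epidermis and dermis genes. Of 14 listed epidermis genes 7 were found by symbol, and of 11 listed dermis genes 7. All genes found passed the filter on low values. Their summed levels were at least 7905 (epidermis) and 143161 (dermis) normalised read counts in every library. No read of SOX2 was found, and the dorsal neural tube genes WNT1 and OLIG3 had 6 and 3 reads over all 21 libraries, whereas DBX2 of the same list had 722 dorsal and 367 ventral reads. SOX2, WNT1 and OLIG3 were named after their values were seen.

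The sides were first compared in a fit on location alone. Of the 6 genes, 3 were higher in dorsal skin (SOX10, PAX3 and TFAP2B) and 1 was lower (GDNF). MITF and EDNRB did not pass in that fit, and the result for EDNRB depended on the method. A gene was called when its Benjamini-Hochberg adjusted p over all 14005 genes tested was below 0.05 in limma (linear models on log2 of the normalised count plus 1). This contrast called 17.2% of all genes tested, 9.31% higher and 7.89% lower dorsally. SOX10 and PAX3 differed by close to 3 log2 units, TFAP2B was the only one of the 6 whose dorsal and ventral libraries did not overlap, and MITF differed by -0.22 with an interval that includes 0. The log2 values are differences of mean logs, on which ventral libraries with few reads weigh heavily. Ratios of the side means were 3.31 for SOX10, 3.82 for PAX3 and 4.37 for TFAP2B. With the replicate number as a block, which called 29.2% of all genes, EDNRB was called higher as well (limma adjusted p = 0.0187). Libraries of the same number deviated together, and the fit on location alone leaves this pairing out. EDNRB was also called higher on recovered reads in edgeR (adjusted p = 0.0448) and DESeq2 (adjusted p = 0.0155).

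**Figure D1:**
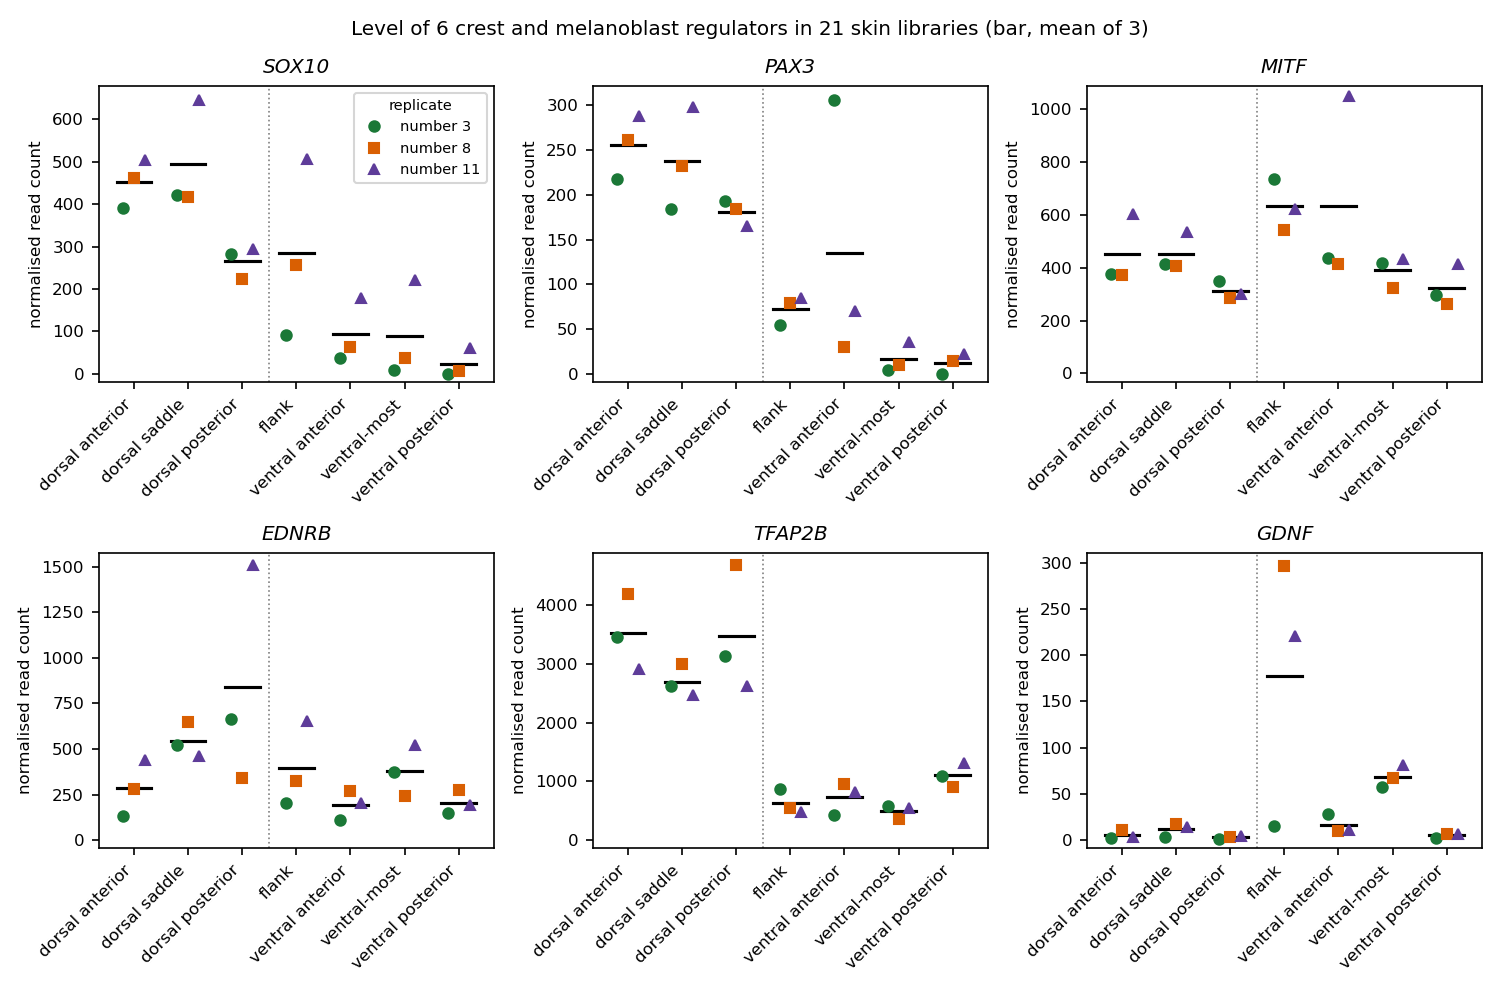
Normalised read count (y axis, linear) of the 6 genes in each of 21 libraries by location (x axis), with a marker for each replicate number and a bar at the mean of 3 libraries; the dotted line parts dorsal from ventral locations. SOX10, PAX3 and TFAP2B have their highest location means on the dorsal side, although the highest PAX3 library is ventral anterior library 3 (306). MITF values overlap across the line, and GDNF is highest in 2 flank libraries (296 and 220.3).

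SOX10, the factor that marks the crest and its glial and pigment descendants (GSZG0005023, chromosome 1A, 50801260 to 50808581, plus strand, in the coordinates of the deposited table, whose build is not given), was read most in anterior and saddle skin of the back. Its normalised read counts in libraries 3, 8 and 11 were 391, 462 and 504 in dorsal anterior, 422, 416 and 647 in dorsal saddle and 281, 223 and 295 in dorsal posterior skin. The flank gave 92.2, 256 and 508 and ventral anterior skin 36.0, 63.5 and 179. Ventral-most skin gave 8.98, 37.2 and 220.2 and ventral posterior skin 0, 5.48 and 60.5, where a count of 0 allows up to 3 reads. Of the 12 ventral libraries 10 lay below the lowest dorsal library, and the exceptions were flank libraries 8 and 11.

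The dorsal mean of SOX10 was 405 ± 129 (SD, n = 9) and the ventral mean 122 ± 149 (SD, n = 12), a ratio of 3.31. The log2 difference was 2.99 (SE 0.62, limma adjusted p = 0.00244), with every number in the same direction. It was 4.73 within number 3, 2.96 within number 8 and 1.29 within number 11. Number 11 held the highest SOX10 of its location at 7 of 7 locations, a pattern that 4.36% of all genes tested showed for that number. Without the libraries of number 8 the difference was 3.01 and the call was lost (limma adjusted p = 0.120).

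By mean level SOX10 ran from the dorsal saddle (495 ± 131, SD, n = 3) through dorsal anterior skin (453 ± 57.1), flank (285 ± 209), dorsal posterior (266 ± 38.3), ventral anterior (92.7 ± 75.7) and ventral-most skin (88.8 ± 115) to ventral posterior skin (22.0 ± 33.5). No step between neighbours in that order passed the test, and the only step without overlap was from dorsal posterior to ventral anterior skin. Of the 21 pairs of locations 4 were called, where 4.02% of all gene-by-pair tests were, and each of the 4 set ventral posterior skin below another place: dorsal anterior (5.94 log2), dorsal saddle (6.04), dorsal posterior (5.17) and flank (4.97). These are differences of mean logs, and ventral posterior skin held 63 SOX10 reads over 3 libraries. With only the compared locations in the fit 1 pair was called, in edgeR 2, without ventral posterior library 8 also 2, and without ventral posterior library 11 there were 7. With the replicate number as a block in limma 9 pairs were called (8.75% of all tests). Among the added pairs was ventral anterior above ventral posterior skin, a difference of 3.36 (adjusted p = 0.0281 with the block, which called 4.21% of all genes in that contrast, and 0.201 without). The flank stood 2.99 log2 units (SE 0.94) above the other ventral locations, called in limma on all libraries only with the block (adjusted p = 0.0113, 7.29% of all genes called, against 0.104 without it). It was also called without number 11 (3.53, adjusted p = 0.0302), without ventral-most library 11 (3.38, 0.0459) and without ventral posterior library 11 (3.5, 0.0177).

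PAX3, a paired-box factor of the neural crest and dorsal neural tube that is also expressed by muscle precursors of the dermomyotome (GSZG0013861, chromosome 9, 8803902 to 8879407, minus strand), followed a dorsal pattern with little spread on the back. Libraries 3, 8 and 11 gave 218, 261 and 289 in dorsal anterior, 184, 232 and 298 in dorsal saddle and 193, 184 and 165 in dorsal posterior skin. The flank gave 54.1, 78.6 and 84.3, ventral-most skin 3.99, 9.08 and 35.7, and ventral posterior skin 0, 13.7 and 21.5. Ventral anterior skin gave 306, 29.4 and 69.8. Thus 11 of 12 ventral libraries lay below every dorsal one, and the remaining library, ventral anterior number 3, lay above every dorsal one.

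PAX3 averaged 225 ± 48.3 (SD, n = 9) dorsally and 58.9 ± 83.3 (SD, n = 12) ventrally, a ratio of 3.82. The log2 difference of 3.04 (SE 0.51, limma adjusted p = 0.000437) had the same sign in all 3 numbers, at 3.55, 3.20 and 2.36 for numbers 3, 8 and 11. Every leave-out of a library or a number kept the call, and without ventral anterior library 3 the difference was 3.26 (adjusted p = 0.000163). The ranking by mean level put dorsal anterior (256 ± 35.6, SD, n = 3), dorsal saddle (238 ± 57.0) and dorsal posterior skin (181 ± 14.3) first. Ventral anterior skin (135 ± 149.7) and flank (72.3 ± 16.0) came next, and ventral-most (16.3 ± 17.0) and ventral posterior skin (11.7 ± 10.9) last. Neighbours in the order did not differ by the test, although flank and ventral-most libraries did not overlap. The 6 called pairs were each dorsal location against ventral-most and against ventral posterior skin, with log2 differences between 3.89 and 5.21, and the replicate block added ventral posterior skin below flank and below ventral anterior skin. Over all genes 4.02% of gene-by-pair tests were called, and 8.75% with the block.

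The high PAX3 of ventral anterior library 3 came with high muscle transcripts. MYOD1, the myogenic determination factor, stood at 1193 there, the highest of the 21 libraries, and the summed level of 8 muscle fibre genes at 10351 was also the highest, against 120 to 6473 in dorsal libraries and 161 to 6080 in the other ventral ones. TYR, the tyrosinase of melanin synthesis, had 0 there, as in number 3 of ventral-most and ventral posterior skin, and GPNMB, a melanosome glycoprotein, had 16.5. Other pigment genes were present, among them DCT at 31.1, KIT at 132 and SLC24A5 at 506. SOX10 was 36.0 in the same library. MYOD1 was also high in ventral anterior libraries 8 and 11 (665 and 763) and in flank library 8 (671), where PAX3 was 29.4, 69.8 and 78.6. The summed dermomyotome and myogenic regulators were highest in ventral posterior library 8. They stood at 3741 there, with PAX3 at 13.7, and at 3246 in ventral anterior library 3. The part of muscle precursors in the PAX3 level was not tested. The difference between ventral anterior and ventral posterior PAX3 was 3.66 log2 units (SE 0.95, limma adjusted p = 0.0610, 0.0338 with the replicate block), and 2.75 without that library (adjusted p = 0.203). It was called in DESeq2 (adjusted p = 0.00127, 3.60% of all genes called) and in limma with a pseudocount of 8 (2.49, 0.0435) or without ventral anterior library 8 (4.41, 0.0481) or ventral posterior library 11 (4.51, 0.0328).

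MITF, the melanocyte master regulator, which is also expressed in other cells (GSZG0002008, chromosome 12, 16777226 to 16818678, plus strand), did not follow SOX10 and PAX3 across the sides. Libraries 3, 8 and 11 gave 378, 372 and 605 in dorsal anterior, 415, 407 and 537 in dorsal saddle and 349, 285 and 301 in dorsal posterior skin. The flank gave 738, 544 and 623, ventral anterior skin 437, 416 and 1048, ventral-most skin 419, 325 and 433, and ventral posterior skin 297, 263 and 414. The ranges overlapped widely, with 3 ventral libraries above the highest dorsal one and 1 below the lowest. In ventral posterior library 3, where SOX10, PAX3 and TYR all had 0 reads, MITF was still at 297. Other pigment genes were present in that library, among them DCT at 14.6, KIT at 181 and SLC24A5 at 578.

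Means of MITF were 406 ± 105 (SD, n = 9) dorsally and 496 ± 220 (SD, n = 12) ventrally. The log2 difference was -0.22 (SE 0.16, 95% interval -0.54 to 0.09, limma adjusted p = 0.412), and no alternative fit called it. Flank (635 ± 97.2, SD, n = 3) and ventral anterior skin (634 ± 359) ranked first, then dorsal saddle (453 ± 72.5), dorsal anterior (452 ± 133), ventral-most (392 ± 58.9), ventral posterior (325 ± 79.5) and dorsal posterior skin (312 ± 33.7), with overlapping ranges at every step. No pair of locations was called, and 4 were with the replicate block, which set flank and ventral anterior skin above dorsal posterior and ventral posterior skin. The block called 8.75% of all gene-by-pair tests. The flank exceeded the other ventral locations by 0.60 (SE 0.24, limma adjusted p = 0.264), and this was called without number 11 (0.84, adjusted p = 0.0404) and without ventral anterior library 11 (0.75, adjusted p = 0.0408). MITF was lowest in number 8 at 7 of 7 locations, as were 3.55% of all genes tested.

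EDNRB (GSZG0000822, chromosome 1, 70477329 to 70491343, minus strand) overlapped widely between the sides, with a large spread between libraries of the same location. In libraries 3, 8 and 11 it stood at 134, 283 and 440.1 in dorsal anterior, 523, 648 and 460.4 in dorsal saddle and 664, 343 and 1509 in dorsal posterior skin. Flank libraries held 205, 326 and 655, ventral anterior ones 110.0, 267 and 205, ventral-most ones 375, 244 and 521, and ventral posterior ones 148, 274 and 194. Only dorsal posterior libraries 3 and 11 exceeded every ventral library, and 1 ventral library lay below the lowest dorsal one.

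Dorsal libraries averaged 556 ± 395 (SD, n = 9) for EDNRB and ventral ones 294 ± 158 (SD, n = 12). The log2 difference of 0.81 (SE 0.29, limma adjusted p = 0.0642) was positive in all 3 numbers (0.93, 0.52 and 0.98) and did not pass. It did pass with the replicate block (adjusted p = 0.0187), without the flank (0.96, limma adjusted p = 0.0385) and, on recovered reads, in edgeR (adjusted p = 0.0448) and DESeq2 (adjusted p = 0.0155). Of all genes tested between the sides edgeR called 16.8% and DESeq2 21%. Leaving out dorsal anterior library 3 (0.97, limma adjusted p = 0.0278), dorsal posterior library 8 (0.98, 0.0234) or flank library 11 (0.92, 0.0314) also gave a call. Without dorsal posterior library 11 the difference was 0.63 (limma adjusted p = 0.140).

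From high to low the means of EDNRB were dorsal posterior (838 ± 602, SD, n = 3), dorsal saddle (544 ± 95.3), flank (395 ± 233), ventral-most (380.3 ± 139), dorsal anterior (286 ± 153), ventral posterior (205 ± 63.4) and ventral anterior skin (194 ± 79.0). Each neighbouring pair overlapped and no pair of locations was called, although 3 were with the replicate block, all of them dorsal above ventral. With the block 8.75% of all gene-by-pair tests were called. Along the back EDNRB was the only one of the 6 whose difference between dorsal anterior and dorsal posterior skin exceeded 1 log2 unit, at -1.45 (SE 0.54, limma adjusted p = 0.240). Without dorsal posterior library 11 that difference was -0.90 (limma adjusted p = 0.709). Dorsal posterior libraries 3 and 8 held 664 and 343, against a dorsal saddle mean of 544.

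TFAP2B (GSZG0009818, chromosome 3, 109941875 to 109966065, plus strand) separated back from belly completely. Libraries 3, 8 and 11 held 3459, 4197 and 2905 in dorsal anterior, 2616, 3000.4 and 2470.1 in dorsal saddle and 3134, 4681 and 2627 in dorsal posterior skin. They held 862, 539 and 483 in flank, 426, 955 and 826 in ventral anterior, 582, 361 and 550.0 in ventral-most and 1099, 895 and 1306 in ventral posterior skin. The lowest dorsal value, 2470.1, was above the highest ventral value, 1306, and 0.593% of all genes tested had every dorsal above every ventral library.

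TFAP2B means were 3232 ± 757 (SD, n = 9) and 740.4 ± 294 (SD, n = 12), a ratio of 4.37. The log2 difference of 2.20 (SE 0.16, limma adjusted p = 1.12e-07) was 2.13, 2.60 and 1.86 in numbers 3, 8 and 11. In mean order dorsal anterior (3520.1 ± 648, SD, n = 3), dorsal posterior (3480.5 ± 1070.3) and dorsal saddle (2695 ± 274) were followed by ventral posterior (1099.9 ± 205), ventral anterior (736 ± 276), flank (628 ± 204) and ventral-most skin (498 ± 119). The step from dorsal saddle to ventral posterior skin, 1.30 log2 units, was the only step between neighbours that was called among all 6 genes (limma adjusted p = 0.0217). All 12 dorsal-ventral pairs were called, and limma called none of the 9 pairs within a side. Of all gene-by-pair tests over the 21 pairs 4.02% were called.

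The epidermis genes shared the side difference of TFAP2B, but not its levels along the back. All 7 tested epidermis genes were higher dorsally, with a median difference of 1.21 log2 units, and their summed level was 19759 to 40498 in dorsal and 7905 to 19076 in ventral libraries, with no overlap. TP63, the epidermal stem cell factor, differed by 1.0 log2 units, DSP, the desmosome plaque protein, by 1.40, and the epithelial splicing factors ESRP1 and ESRP2 by 1.23 and 1.21 (limma adjusted p at most 5.39e-06). Along the back the summed epidermis level was 32525 to 40498 in dorsal anterior and 19759 to 22656 in dorsal posterior libraries. TFAP2B averaged 3520.1 and 3480.5 in these locations. On the belly side both were highest in ventral posterior and lowest in ventral-most skin. The summed epidermis level was 14961 to 19076 in ventral posterior and 7905 to 9639 in ventral-most libraries, where TFAP2B averaged 1099.9 and 498. The part of the amount of epidermis in the TFAP2B difference was not tested.

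GDNF (GSZG0017964, chromosome Z, 42393712 to 42409055, minus strand) was close to the limit of detection on the back and highest in flank and ventral-most skin. Libraries 3, 8 and 11 gave 1.75, 10.6 and 3.39 in dorsal anterior, 3.48, 17.7 and 14.5 in dorsal saddle and 1.66, 3.14 and 4.38 in dorsal posterior skin, which was 67 reads over 9 libraries. The flank gave 14.8, 296 and 220.3, ventral-most skin 57.9, 67.2 and 80.9, ventral anterior skin 28.2, 10.1 and 10.9, and ventral posterior skin 2.09, 6.84 and 6.15. Of the 12 ventral libraries 6 lay above the highest dorsal one. Flank library 3 was far below the other flank libraries, and GDNF was lowest in number 3 at 6 of 7 locations. The share of all genes with that pattern is not given here, so the count cannot be read as a trait of GDNF.

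GDNF averaged 6.73 ± 5.98 (SD, n = 9) dorsally and 66.8 ± 94.6 (SD, n = 12) ventrally, a ratio of 9.93. The log2 difference was -2.21 (SE 0.49, limma adjusted p = 0.00391). It is a difference of mean logs, and the ratio of mean levels also carries the weight of 2 high flank libraries. Numbers 3, 8 and 11 gave -2.41, -1.92 and -2.30. The call was lost without number 8 (-2.36, limma adjusted p = 0.0626) and without number 11 (-2.17, adjusted p = 0.0803). With anterior and posterior pieces alone, which leaves out flank, ventral-most skin and the dorsal saddle, the difference was -1.06 (adjusted p = 0.409).

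The order of GDNF by mean was flank (177 ± 146, SD, n = 3), ventral-most (68.7 ± 11.6), ventral anterior (16.4 ± 10.2), dorsal saddle (11.9 ± 7.45), dorsal anterior (5.24 ± 4.70), ventral posterior (5.03 ± 2.57) and dorsal posterior skin (3.06 ± 1.36). Ventral-most and ventral anterior libraries did not overlap, although that step was not called, and the ranges overlapped at the other steps. The 6 called pairs set flank above the 3 dorsal locations and ventral posterior skin, and ventral-most skin above dorsal anterior and dorsal posterior skin, and 9 pairs were called with the replicate block, 9 without flank library 3 and 3 with only the compared locations in the fit. The share of all gene-by-pair tests called was 4.02%, and 8.75% with the block. Flank GDNF was 2.47 log2 units (SE 0.74) above the rest of the ventral side, which missed the threshold in limma (adjusted p = 0.0831) and passed it with the block (0.0224), in edgeR (0.00526, 2.96% of all genes called) and in DESeq2 (0.000124, 5.53%). With a pseudocount of 8 it also passed (2.04, limma adjusted p = 0.0457), as it did without number 3 (3.79, 0.00689). Without flank library 3 the difference was 3.82 (limma adjusted p = 0.00419), without flank library 8 it was 1.70 (0.452) and without flank library 11 it was 1.91 (0.300). Chromosome Z genes as a whole differed little between numbers. The median deviation of 518 Z genes from the location mean, less that of 10624 other genes, was -0.01, 0.02 and 0.00 log2 units for numbers 3, 8 and 11.

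**Figure D2:**
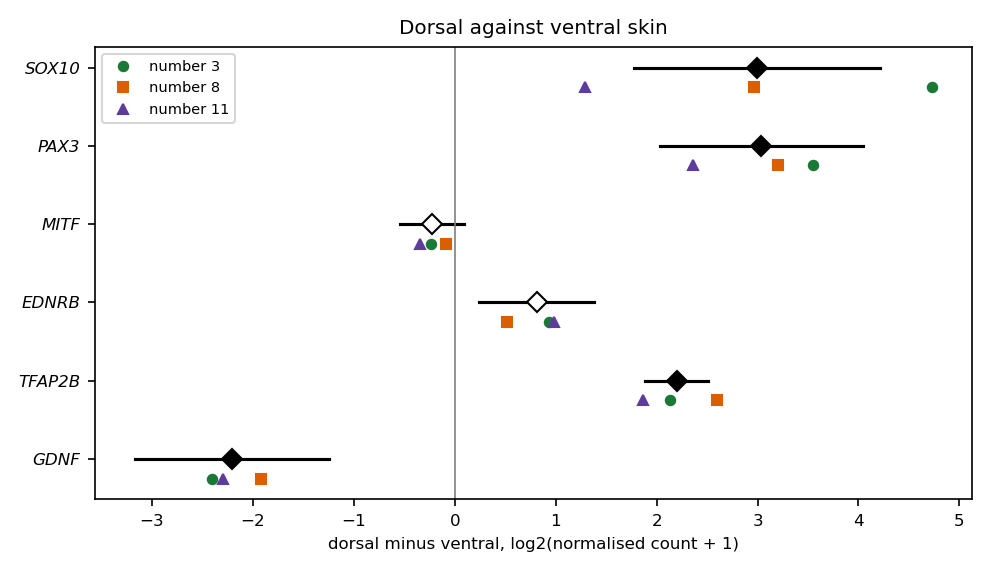
Dorsal minus ventral difference in log2(normalised count + 1) (x axis) for each gene; diamonds are the limma estimates with 95% intervals, filled where called, and smaller markers give the difference within each replicate number. SOX10 spreads from 1.29 to 4.73 between numbers, whereas TFAP2B stays between 1.86 and 2.60 and MITF lies close to 0 in all 3.

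Over all 7 locations at once limma called 4 of the 6 genes, where 15.4% of all genes tested were called: SOX10 (adjusted p = 0.00744), PAX3 (0.00218), TFAP2B (4.19e-06) and GDNF (0.00378). SOX10 was not called in edgeR (adjusted p = 0.0745, 15% of all genes called), nor in limma without number 3 (0.0951) or number 8 (0.441). PAX3 was lost without number 8 (limma adjusted p = 0.146), and GDNF without number 8 (0.194) or number 11 (0.186). MITF (limma adjusted p = 0.102) and EDNRB (0.0875) were called with the replicate block (0.00969 and 0.0189) and in DESeq2 (0.0135 and 0.00218), which called 30.0% and 24.7% of all genes. Single omissions also gave a call for MITF (without ventral anterior library 11, adjusted p = 0.0436) and EDNRB (without dorsal posterior library 8, 0.0357).

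None of the 6 was called by limma in the contrasts along the body or within a side that are listed next. Among single pairs of locations within a side, limma called SOX10 and GDNF higher in flank than in ventral posterior skin (adjusted p = 0.0293 and 0.0203). Over all genes 4.02% of gene-by-pair tests were called. In the listed contrasts the share of all genes called was 2.27% between dorsal anterior and dorsal posterior skin and 1.76% between ventral anterior and ventral posterior skin. It was 0.828% for the difference between these 2 contrasts, 3.05% for flank against the other ventral locations and 0.143% for dorsal saddle against the other dorsal locations. Of the 30 values tested in the listed contrasts, 10 had an unadjusted limma p below 0.05. The share of all genes below that p is not given here, so this count cannot be read as an excess. Adjusted over all genes, edgeR called 1, GDNF in the flank contrast (2.96% of all genes called). DESeq2 called 2, GDNF in the flank (5.53%) and PAX3 along the belly (3.60%). Limma with the replicate block called 5. They were MITF, SOX10 and PAX3 along the belly (4.21%) and SOX10 and GDNF in the flank (7.29%). In the ventral contrast anterior minus posterior MITF was 0.85 log2 units (SE 0.30, limma adjusted p = 0.220), called only with the block (0.0395), while TFAP2B differed by -0.64 (SE 0.30, adjusted p = 0.439). For PAX3 the anterior-posterior difference was 0.49 on the back and 3.66 on the belly, and the difference between them, -3.16 (SE 1.34), was not called (limma adjusted p = 0.434).

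SOX10 and PAX3 varied together from library to library. Their Pearson r on the log2 scale was 0.871 over the 21 libraries, 0.835 over the 9 dorsal and 0.779 over the 12 ventral ones, and 0.769 without the 2 libraries farthest from the SOX10 median. MITF correlated weakly with SOX10 over all libraries (r = 0.367) and more closely within the dorsal (0.871) and the ventral side (0.695). TFAP2B, which shares the dorsal side with SOX10, had r = 0.464 with it over all libraries but -0.491 within the dorsal and -0.348 within the ventral side. GDNF and TFAP2B had r = -0.739 over all, -0.168 within dorsal and -0.799 within ventral libraries. These values are descriptions, since libraries of the same side, location and number are not independent.

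**Figure D3:**
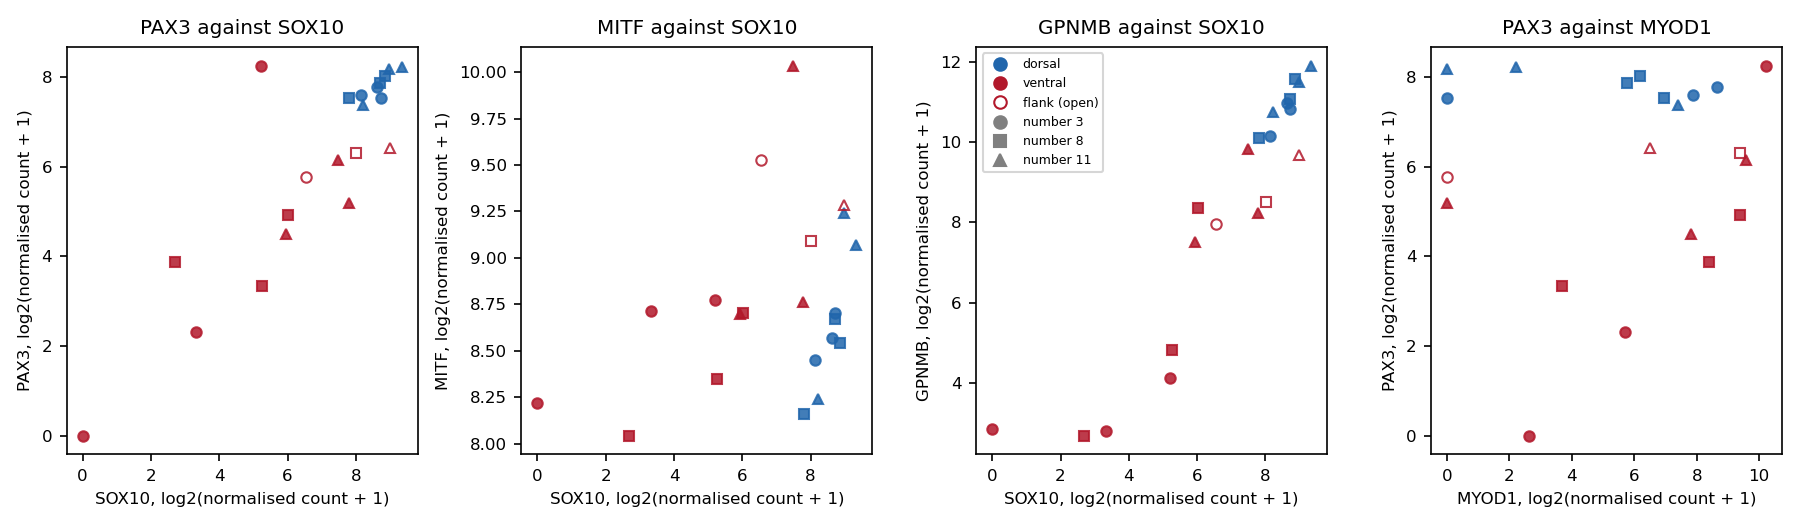
Library-by-library values in log2(normalised count + 1) on both axes for PAX3 and MITF and the melanosome gene GPNMB against SOX10, and for PAX3 against the muscle factor MYOD1; blue is dorsal, red ventral, open flank, and marker shapes give the replicate number. PAX3 tends to follow SOX10; ventral anterior library 3 (PAX3 306, SOX10 36.0) has the highest MYOD1, flank library 11 pairs a SOX10 of 508 with a PAX3 of 84.3, and MITF ranges overlap between the sides, with 3 ventral libraries above the highest dorsal one.

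Among 7393 named genes with a mean of at least 50 in some location, the 5 most like SOX10 over the 21 libraries were GPNMB (r = 0.929), TRPM1, a melanocyte cation channel (0.929), TYR (0.901), CDH19, a cadherin of Schwann cell precursors (0.890), and TRERF1 (0.853). The first 4 had r of at least 0.838 within the dorsal and 0.836 within the ventral side, and TRERF1 had 0.657 and 0.853. These genes were picked on the same libraries, so their r within a side is a description and no separate check. Among the genes most like PAX3 were ANK3 (0.836), TRERF1 (0.799), GPNMB (0.798) and DCT, dopachrome tautomerase of melanin synthesis (0.792). ANK3 had r = 0.343 with PAX3 within the dorsal side, against 0.846 for GPNMB and 0.893 for DCT.

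MITF had none of the pigment genes of the list among its closest 5, which were ETF1, a translation release factor (0.794), GPAT4 (0.786), BLOC1S5, a subunit of the complex that builds melanosomes and other lysosome-related organelles (0.767), DNAJB9 (0.761) and SDC2 (0.734). BLOC1S5 did not differ by the test between the sides (0.05 log2 units, limma adjusted p = 0.833), and its r with MITF was 0.907 within the dorsal side. EDNRB was most like TMEM181 (0.794), RNF144A (0.777), CLIP2 (0.773), FNDC1 (0.766) and CYP7B1 (0.764). TMEM181 had r = 0.942 with EDNRB over the dorsal libraries and 0.497 over the ventral ones.

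Among the genes most like TFAP2B were STK17A, a kinase (0.962), LRRC1 (0.933), FOXB1, a forkhead factor (0.925), and CELSR1, a planar polarity cadherin (0.918). FOXB1 had 3 reads over all 12 ventral libraries. Within the dorsal side FOXB1 had r = 0.955 with TFAP2B and STK17A 0.861. Within the ventral side these values were -0.069 and 0.740, where FOXB1 had too few reads for its r to be read. GDNF was most like AKR1D1, a steroid reductase (0.858), SOAT1 (0.830), TRIM24 (0.817), FZD4, a Wnt receptor (0.813), and SEPTIN9 (0.796).

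The wider pathways were read from lists chosen with earlier results of these data known, so their counts are descriptions. Over all genes tested the median difference between dorsal and ventral skin was 0.00 log2 units. Limma called 9.31% of all genes higher and 7.89% lower dorsally, and 29.2% in either direction with the replicate block. The counts of every list below are to be read beside these shares. Listed genes that were not found by symbol or did not pass the filter on low values are left out of the counts. Of 16 tested neural crest regulators 3 were higher dorsally and 2 lower, with a median of 0.20, and with the replicate block 5 were higher and 2 lower. TFAP2E, an AP-2 relative of TFAP2B, was higher by 1.68 log2 units (SE 0.19, limma adjusted p = 9.34e-06). SOX5, a SOX factor of crest and cartilage, was higher by 0.99 (adjusted p = 0.0148), and LMO4, a LIM-domain adaptor, by 0.84 (0.00635). SOX9, the SOXE relative of SOX10, was lower (-0.90, adjusted p = 0.00956), as was the zinc finger factor ZEB2 (0.0223). SOX5 lost its call without number 3 (adjusted p = 0.107) or 8 (0.126), SOX9 without number 8 (0.256) or 11 (0.0651), LMO4 without any number (0.0506 to 0.0632), and ZEB2 in 4 of 24 omissions. FOXD3, ERBB3 and PAX7 were not analysed here.

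Pigment cell genes, most of which are targets of MITF or SOX10 in the mouse, were called higher dorsally in most cases. Of 17 tested, 14 were higher dorsally and none lower, with a median of 2.01 log2 units. With the replicate block 15 were higher and 1 lower, the survival gene BCL2 (-0.84, adjusted p = 0.000796 with the block). TYR was at 1431 ± 645 (SD, n = 9) dorsally and 124 ± 141 (SD, n = 12) ventrally, a difference of 5.57 (SE 0.94, limma adjusted p = 0.000449). KIT, the receptor of melanoblast migration and survival, differed by 2.47 (adjusted p = 1.80e-05), and DCT by 3.25 (6.80e-05). GPR143, a melanosome receptor, differed by 2.92 (2.32e-05) and SLC24A5, a melanosome exchanger, by 0.73 (6.38e-06). MITF itself did not pass, and of its family TFEB, the only member tested, differed by 0.01 (adjusted p = 0.990). Without number 8 there were 8 called pigment genes, and the 5 just named were among them.

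The glial and neuronal genes that could be tested gave no common direction. Of 16 listed Schwann and glial crest genes 6 were found by symbol and 5 were tested. Limma called 1 of the 5, higher dorsally, where 17.2% of all genes were called in either direction. The list's median was -0.39 log2 units. FABP7, a glial fatty acid binding protein, differed by -0.43 (limma adjusted p = 0.340), and CDH19 by 1.57 (0.124, and 0.0310 with the block). Of 16 listed neuron genes 10 were found by symbol and 7 were tested. Among the 7, SYT1, a synaptic vesicle sensor, was higher by 0.73 (limma adjusted p = 0.000732, 0.0641 without number 3). STMN2, a stathmin of growing axons, was lower (-4.57, adjusted p = 6.17e-05). STMN2 was at 1691, 3359 and 1224 in the flank libraries 3, 8 and 11, and at most 18.8 in a dorsal library. Flank libraries 8 and 11 thus had the highest GDNF values and high STMN2 values, but in flank library 3 GDNF was 14.8 while STMN2 was 1691. The part of nerves in the flank values of SOX10 and GDNF was not tested.

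In the endothelin pathway 1 of 3 tested genes was lower dorsally and 1 higher. EDNRA, the endothelin receptor of mesenchymal crest cells, was lower on the back, at 1743 ± 289.5 (SD, n = 9) against 4384 ± 1307 (SD, n = 12), a difference of -1.29 log2 units (SE 0.14, limma adjusted p = 6.14e-06). EDNRB had a positive difference, 0.81, that limma on all libraries called only with the replicate block (limma adjusted p = 0.0187, against 0.0642 without it). ECE1, the protease that matures endothelins, was higher dorsally by 0.48 (adjusted p = 0.00678, 0.120 without number 8 and 0.0592 without number 11), and EDN1, an endothelin, differed by 1.02 (adjusted p = 0.0943).

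None of the 5 tested genes of the GDNF family and its receptors was called by limma between the sides, and with the replicate block 2 were, both lower dorsally. RET, the signalling receptor of GDNF, differed by -1.82 log2 units (SE 0.74, limma adjusted p = 0.106, 0.0234 with the block). Its libraries 3, 8 and 11 held 46.7, 293 and 119 in flank and 3.89, 985 and 380.4 in ventral anterior skin, where GDNF stood at 28.2, 10.1 and 10.9. In ventral-most skin, where GDNF was 57.9 to 80.9, RET was 13.0, 47.2 and 27.4. By location mean RET was highest in ventral anterior skin (456) and next in flank (153), where GDNF was highest. Its ventral-most mean (29.2) was below dorsal saddle (68.9) and ventral posterior skin (46.6). It was above dorsal anterior (9.48) and dorsal posterior skin (9.98). GFRA1, the co-receptor, differed by 0.68 (adjusted p = 0.290), and NCAM1, an adhesion molecule that also binds GDNF, by -0.33 (0.310, 0.0255 with the block).

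Secreted regulators of melanoblasts included 2 genes higher and 4 lower dorsally of 12 tested, with a median of -0.64 log2 units, and with the replicate block 2 were higher and 7 lower. KITLG, the ligand of KIT, was higher by 1.06 (limma adjusted p = 0.00178, 0.0628 without number 8). ASIP, the agouti antagonist of melanocortin signalling, was lower (-6.06, adjusted p = 1.12e-07), as were the growth factor TGFB2 (-1.90, 0.000575) and SFRP2, a Wnt inhibitor (-1.75, 0.00330, lost without number 8 at 0.0923 and number 11 at 0.0987).

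Genes of other tissues in the skin pieces were read in the same way. Dermomyotome and myogenic regulators had 3 of 8 lower dorsally, the mesenchymal homeobox genes MEOX2 (-1.81 log2 units, limma adjusted p = 0.000338) and MEOX1 (-1.99, 0.0111) and the cofactor EYA2 (-1.36, 0.0235). MEOX1 was lost without number 8 (0.157) or 11 (0.0610), and EYA2 in 3 of 24 omissions. None of 8 muscle fibre genes was called, the most abundant being ACTC1 (-0.20, adjusted p = 0.926) and MYL1 (0.03, 0.987), and the single tested spinal cord gene, DBX2, was not (0.78, 0.550). Of 4 kidney genes SIX2 was lower (-1.68, 1.17e-05) and GATA3 higher (0.90, 0.0110, lost without number 8 at 0.123 or 11 at 0.104). Of 8 endothelial genes 4 were lower, among them FLT1 (-1.32, 0.00290, lost without number 8 at 0.0987) and ERG (-0.50, 0.00198). KDR and LMO2, the other two, lost their calls in 7 and 13 of 24 omissions. Of 7 dermis genes 3 were lower, DCN (-0.42, 0.000215), LUM (-0.57, 0.0104) and TWIST2 (-0.57, 0.0132), of which LUM and TWIST2 each lost the call in 2 of 24 omissions.

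**Figure D4:**
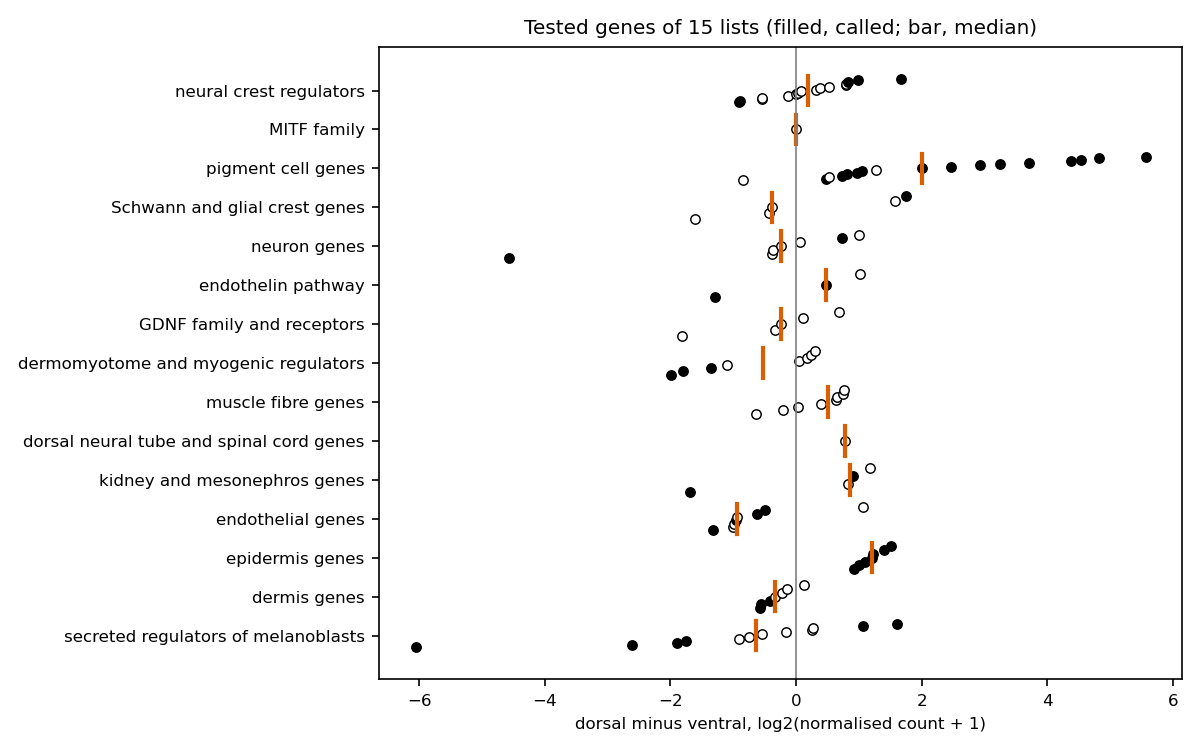
Dorsal minus ventral difference in log2(normalised count + 1) (x axis) of every tested gene of the 15 lists (y axis), filled where limma called it, with an orange bar at the list's median. The 7 epidermis genes (median 1.21) and all but 1 of the 17 pigment cell genes (median 2.01) lie to the right of 0, while neural crest regulators (median 0.20) spread on both sides.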

How the data were processed

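The deposited table holds 1 normalised signal per gene and library: per the file headers and the labels, the authors divided read counts by a size factor for each library. Per the labels' protocols, skin RNA was amplified with SMART-Seq v4 and made into Nextera XT libraries, which carry no molecular identifiers, so a limit from a count of 0 covers counting error alone. STAR 2.4.0, SAMtools, Picard, FastQC and DESeq2 appear in the submitters' processing notes; the build and the read counter were not given in the sources used here. Dividing each column by its smallest step (0.784 to 1.37) gave whole reads for 100.0% of values within 0.01.

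Symbols came from RefSeq by Entrez identifier (8707 of 9858 matched) or from the deposited name; 8546 genes had one. Members and lists were chosen with earlier results of these data known. Tests used limma 3.58.1 in R 4.3.3 on log2(value + 1), moderated robustly with a trend, for the 14005 genes that reached 10 in 3 or more libraries; all 7 locations entered a single fit, and p was adjusted by Benjamini-Hochberg. The scripts were tested on simulated data. On recovered reads, edgeR 4.0.16 (quasi-likelihood, TMM) called 2357 genes between the sides and DESeq2 1.42.0 called 2937, against 2409 in limma. Other alternatives were pseudocounts of 0.5 and 8, other filters, TMM scaling, other moderation, subsets of locations, leaving out each number or library, and the replicate number as a block. Numbers pair the libraries: of 63 same-number pairs all had a correlation of deviations above 0.1 (lowest 0.272).

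Named beside the 6 genes are the 5 most correlated genes for each, up to 4 called genes of each list by adjusted p (the 2 most abundant where fewer than 2 were called), and ASIP, KIT, KITLG, TYR, RET, GFRA1, EDNRA, ERBB3, FOXD3 and PAX7 wherever measured; a few genes chosen in this way are left out here. MYOD1, WNT1, OLIG3, SOX2, EDN1, CDH19, ZEB2, BCL2 and GPNMB were added after their values were seen.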

Additional observations from a re-analysis of the deposited data

Results flagged for a closer look

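EDNRB in dorsal posterior library 11, at 1509, stood far above the other 8 dorsal libraries, of which the next highest was dorsal posterior library 3 at 664. The gap was 0.615 of the whole range of the 9 dorsal libraries, above Dixon's critical value of 0.493 for 9 samples. It was taken on normalised counts and was not tested on the log2 scale of the other tests. The 9 libraries came from 3 locations, which were pooled here as if they were 1 group. Chance flags about 1 in 20 groups. The dorsal libraries of all 6 genes were searched in this way, at both ends, and only this value was flagged.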

How the results depend on the processing

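The side difference of TFAP2B and PAX3 kept its call under every alternative, that of MITF was called under none, and SOX10 lost its call without number 8. The replicate block changed no other call of a member than those given beside the results, and raised genes called from 2409 to 4084 between sides and from 2152 to 4208 among locations; DESeq2 called 3462 among locations, and anterior and posterior pieces alone 1174 between sides. EDNRB between sides passed with the block (0.81), without the flank (0.96), in edgeR (0.87) and in DESeq2 (0.87), and GDNF missed with anterior and posterior pieces alone (-1.06). Over the 24 omissions of a number or a library, the side difference ran from 2.13 to 3.85 for SOX10, 0.63 to 0.98 for EDNRB and -2.55 to -2.0 for GDNF. Members called ran from 2 to 5 between sides and 1 to 5 among locations, and genes called from 813 to 2457 and from 244 to 2187, each lowest without number 8. Without number 3 there were 1525 genes called between sides.

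Omissions turned the sign of small, uncalled differences. These were TFAP2B and GDNF along the back (-0.14 to 0.28 and -0.17 to 0.87), EDNRB along the belly (-0.40 to 0.23), MITF in the difference of the contrasts (-0.583 to 0.083), TFAP2B in the flank (-0.561 to 0.042), and EDNRB and PAX3 in the saddle (-0.008 to 0.931 and -0.049 to 0.295). Without number 8, pairs of locations called fell to 0 for SOX10, PAX3 and GDNF and to 9 for TFAP2B; without number 11 they were 0 for GDNF and 2 for PAX3; without number 3 they were 1 for SOX10. An omission of a number leaves 2 libraries a location. GDNF on the back, with 10 to 39 reads a location, is limited by depth.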
